A study of Mus musculus with 4 samples.

Results

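The Runx family of transcription factors, Runx1, Runx2 and Runx3, had 4 regions in a table of captured methylated DNA from CD4+ T cells. These were the regions that the table assigns by gene label to Runx1 (1 region), Runx2 (2 regions) and Runx3 (1 region), out of 10000 regions under 5349 gene labels. All 4 were intronic. Each stood at 0 in the Th17 library and had reads in the Treg, Th1 and naive libraries. Between those 3 populations, no Runx region differed by more than its counting error.

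Genomic DNA came from spleen and lymph node CD4+ T cells of female Balb/c mice, with 1 library for each of 4 sorted populations. Th17 cells were CD3+CD4+ with low CD45RB, and positive for IL-17A but not interferon gamma. Treg cells were sorted as CD3+CD4+CD25++. Th1 cells were CD3+CD4+ with low CD45RB, and positive for interferon gamma but not IL-17A. Naive cells were CD3+CD4+ with high CD45RB. All 4 populations, naive cells included, were exposed for 3 h to PMA (10 ng/ml) and ionomycin (500 ng/ml), which activate T cells without engaging the antigen receptor. Treg cells were treated after sorting and the others before it, so that order cannot be told apart from cell type. The labels name neither the animals' age and number nor whether they were pooled. Methylated fragments were captured on a methyl-CpG-binding protein, so a region gains reads both from being methylated and from holding many CpGs.

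Runx proteins bind DNA through the Runt domain, as partners of the non-DNA-binding subunit Cbfb, and act as activators or repressors depending on the site. In T cells Runx1 is needed for thymocyte development and associates with Foxp3 in regulatory T cells. Runx3 silences Cd4 in CD8 T cells and, together with the factor encoded by Tbx21, favours Ifng and represses Il4 in Th1 cells. Runx2 is best known as the regulator of bone formation and is also expressed in T cells. Runx1 and Runx3 are each transcribed from a distal and a proximal promoter, and in both genes the proximal one is CpG-rich.

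Library facts bear on every value below. The Th17 library was listed at 0 in each of the 10000 regions, so a 0 there is common to the whole table. Taken by itself, a 0 was allowed up to 3 Th17 reads, a fixed setting and not an exact interval. That setting does not describe a library at 0 in every region, and the worth of 1 Th17 read cannot be recovered from zeros. Values of the other libraries are scaled reads. One read was worth 0.352 in Treg, 1.68 in Th1 and 0.996 in naive cells, and the libraries held 74571, 19548 and 34277 reads in the table, in that order. The 95% intervals given here are exact and cover counting error only, since no population had a replicate. Capture of DNA does not show which cells were sorted. Of 21 marker genes of the 4 populations, 8 had a region (38.1%, against 22.1% of all protein-coding genes), among them Il17a, Ccr6, Rora, Stat4, Il18r1, Nrp1 and Foxp1, while Foxp3, Tbx21, Ifng, Il17f and Il23r had none.

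The table held 477 promoter regions and 1658 exonic regions (4.77% and 16.6% of the table), but none of either kind for a Runx gene. The Runx promoters are shown here because their CpG content, on which this capture depends, differs widely. In RefSeq on GRCm38.p6, 5 windows of 300 bp (250 before and 50 after a transcript start) matched the 3 genes. The proximal windows of Runx3 and Runx1 held 45 and 35 CpGs, more than 98.1% and 93.0% of 32851 such windows, whose median was 7. The distal window of Runx3 held 8 CpGs, that of Runx1 held 2, and the only Runx2 window listed held 2. The 250 bases before the Runx3 starts, with each CpG in capitals, show the contrast between the distal promoter (chr4:135120395-135120644, plus strand, 8 CpGs) and the proximal promoter (chr4:135152295-135152544, plus strand, 38 CpGs).
Runx3 distal: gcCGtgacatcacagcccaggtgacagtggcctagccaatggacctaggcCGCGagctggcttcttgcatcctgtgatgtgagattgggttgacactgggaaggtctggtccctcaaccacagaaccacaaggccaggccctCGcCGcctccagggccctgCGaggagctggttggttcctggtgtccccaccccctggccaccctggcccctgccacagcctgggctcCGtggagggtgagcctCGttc
Runx3 proximal: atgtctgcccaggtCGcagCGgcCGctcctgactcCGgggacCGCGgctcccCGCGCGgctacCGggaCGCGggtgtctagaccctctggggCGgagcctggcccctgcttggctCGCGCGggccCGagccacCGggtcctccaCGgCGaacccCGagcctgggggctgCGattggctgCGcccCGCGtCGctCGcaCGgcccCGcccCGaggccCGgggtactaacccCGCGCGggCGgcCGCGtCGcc

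The distal windows of Runx1 and Runx3 and the Runx2 window shared a run of 18 bases that holds ACCACA, the core of the site that Runx proteins themselves bind, as a tandem pair. The run is shown with 4 bases on either side and ACCACA in capitals. It began 27 bases into the Runx1 transcript (minus strand), 22 bases into the Runx2 transcript (minus strand) and at position -136 from the Runx3 start (plus strand).
Runx1, chr16:92826027-92826052: taaacaACCACAgaACCACAagttgg
Runx2, chr17:44814585-44814610: caaacaACCACAgaACCACAagtgcg
Runx3, chr4:135120505-135120530: ccctcaACCACAgaACCACAaggcca
The run was picked as the longest that these 3 windows share, so their holding it was fixed in advance. Of the 32851 windows, 3 held the run of 18 bases on the strand shown, and these were the 3 Runx windows. Neither proximal window held it. ACCACA alone, on either strand, was in 16.8% of windows, and 1.81% held it 2 or more times. A run of 18 bases is far less likely to recur than so short a motif, so the counts cannot be compared. A match of letters is a description and shows no binding. These coordinates are on GRCm38.p6 and cannot be set beside those of the table, which are on mm9.

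The Runx1 region lay on mm9 chromosome 16 (chr16:92800890-92801042), in an intron of ENSMUSG00000022952; the table does not number introns. At 153 bp it was among the shorter regions, with 1.70% of the table shorter. It was listed at 0 in Th17 cells. It held 7 reads in Treg cells, a value of 2.47 (interval 0.992 to 5.08), 1 read in Th1 cells, a value of 1.68 (0.0426 to 9.37), and 5 reads in naive cells, a value of 4.98 (1.62 to 11.6). Naive cells had the highest value and Th1 cells the lowest of those read, and all 3 intervals overlapped. The naive count was above that of 76.3% of the table's regions, while the single Th1 read was a count that 28.9% of regions shared.

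The 2 Runx2 regions lay 40.4 kb apart on mm9 chromosome 17, both in introns of ENSMUSG00000039153. The lower one (chr17:44792759-44793021, 263 bp) was listed at 0 in Th17 cells. It held 7 reads in Treg cells, a value of 2.47 (0.992 to 5.08), 4 reads in Th1 cells, a value of 6.72 (1.83 to 17.2), and 2 reads in naive cells, a value of 1.99 (0.241 to 7.20). Here Th1 cells had the highest value and naive cells the lowest of those read, the reverse of Runx1, again with overlapping intervals. Of the table's regions, 3.78% held more than 4 Th1 reads and another 9.19% held exactly 4.

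The upper Runx2 region (chr17:44833384-44833644, 261 bp) was also listed at 0 in Th17 cells. It held 10 reads in Treg cells, a value of 3.52 (1.69 to 6.48), 3 reads in Th1 cells, a value of 5.04 (1.04 to 14.7), and 3 reads in naive cells, a value of 2.99 (0.616 to 8.73). The populations stood in the same order of deposited values as in the lower region, with Th1 highest. The 3 values lay closer together, and their intervals overlapped. Its mean value over Treg, Th1 and naive cells, 3.85, was the highest of the 4 Runx regions and above that of 83.9% of the table. The lower Runx2 region, at 3.73, was above 80.0%. Such a mean weighs 1 Th1 read at 1.68 but 1 Treg read at 0.352. By total reads the upper region, with 16, was above 80.9% of the table, and the lower, with 13, above 47.5%.

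The Runx3 region lay on mm9 chromosome 4 (chr4:134699351-134699704), in an intron of ENSMUSG00000070691. It was listed at 0 in Th17 cells. At 354 bp it was the longest of the 4, and 89.3% of the table's regions were shorter. It held 10 reads in Treg cells, a value of 3.52 (1.69 to 6.48), 1 read in Th1 cells, a value of 1.68 (0.0426 to 9.37), and 4 reads in naive cells, a value of 3.98 (1.09 to 10.2). The single Th1 read gave the lowest value, as in Runx1, and Treg and naive cells had close values. The mean values of Runx3 and Runx1, 3.06 and 3.04, were near the middle of the table, above 50.2% and 48.2% of regions. By total reads Runx3, with 15, was above 71.4% of regions, and Runx1, with 13, above 47.5%. Counted per 100 bp, Runx1 was the most densely read of the 4 in Treg cells (4.58 reads) and in naive cells (3.27 reads), and Runx3 the least densely read in Th1 cells (0.282 reads). Dividing by length raises the Runx1 figures, since at 153 bp it was the shortest of the 4. Undivided, its 7 Treg reads were below the 10 of Runx3.

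**Figure D1:**
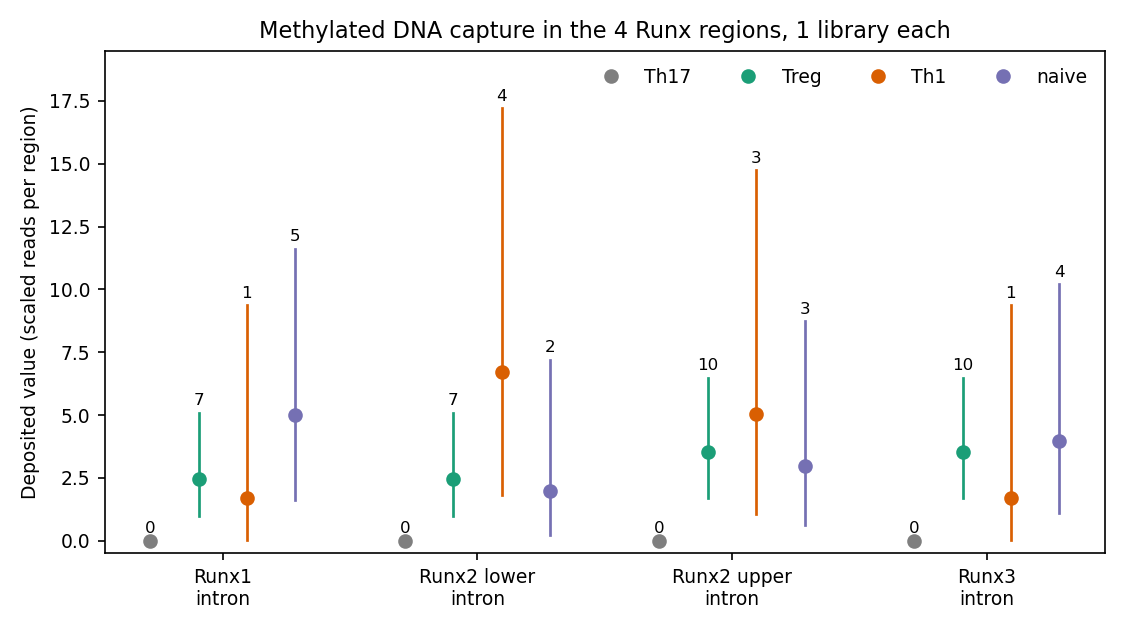
Deposited values (scaled reads per region, vertical axis) of the 4 intronic Runx regions in 1 library each of Th17, Treg, Th1 and naive cells. Points are values, lines exact 95% Poisson intervals and numbers the reads; Th17 is at 0 in each region with no interval, since the worth of 1 Th17 read is not known, and the intervals of the other 3 libraries overlap in every region.

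The comparison of Th17 cells with the other populations is the one for which the table is named. A region was called when its log2 ratio, computed after adding 0.5 to each value, reached 1 or -1. By this size rule Th17 cells were below Treg cells in all 4 Runx regions, against 98.9% of all regions. The same 4 were lower than in Th1 cells, against 87.7%, and lower than in naive cells, against 98.4%. Below all 3 at once were again 4 of 4, against 85.2% of the table. The count therefore says nothing particular about Runx genes. The depth of the Th17 library is not known from these values, and no fold against Th17 is given.

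Th1 cells were next set against naive cells, the comparison in which the Runx genes differed most among themselves. In the lower Runx2 region the Th1 value was 3.37 times the naive value (interval 0.484 to 37.3; log2 ratio 1.54). The upper Runx2 region lay on the same side, with a ratio of 1.69 (0.226 to 12.6; log2 ratio 0.67). Runx1 and Runx3 lay on the other side. Their ratios were 0.337 in Runx1 (0.00714 to 3.02; log2 ratio -1.33) and 0.422 in Runx3 (0.00857 to 4.26; log2 ratio -1.04).

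By the size rule 1 Runx region, the lower Runx2 region, was higher in Th1 than in naive cells, against 19.4% of all regions. Another 2, Runx1 and Runx3, were lower, against 29% of all regions. At equal table totals Runx3 fell short of the rule, with a log2 ratio of -0.98. With 5 added in place of 0.5, no Runx region was called in the comparisons among Treg, Th1 and naive cells. All 4 intervals included a ratio of 1, and with 1 more Th1 read Runx1 and Runx3 would have log2 ratios of -0.51 and -0.22, inside the rule. The same added read would take the upper Runx2 region to 1.05, past the rule, and the lower one to 1.84. Summed by a grouping chosen after the values were seen, the 2 Runx2 regions held 7 Th1 and 5 naive reads, and Runx1 and Runx3 together 2 Th1 and 9 naive reads. The ratio of values was 2.36 in the first set (0.645 to 9.44) and 0.375 in the second (0.0394 to 1.81). The difference between the sets was not tested, because they were picked for it.

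Treg cells, with the deepest library of the 3, differed from naive cells by less than the size rule in every Runx region. The ratio of the Treg to the naive value was 0.495 in Runx1 (0.135 to 1.98; log2 ratio -0.89), 1.24 in the lower Runx2 region (0.236 to 12.2; log2 ratio 0.25), 1.18 in the upper Runx2 region (0.304 to 6.67; log2 ratio 0.21) and 0.885 in Runx3 (0.255 to 3.86; log2 ratio -0.16). Neither direction of the size rule took in a Runx region, against 8.33% of all regions higher and 22.2% lower in Treg cells. The intervals are wide enough to hold a doubling or a halving in all but Runx1, whose upper bound of 1.98 lies just short of a doubling.

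Ratios with Treg cells shifted with the scaling of the libraries. At equal table totals the median log2 ratio of all regions, Treg over naive, was higher by 0.33 than at the deposited scaling, and that of Treg over Th1 by 0.28. As deposited, 833 of all regions were higher and 2217 lower in Treg than in naive cells, but 1518 and 1233 at equal totals. Runx3 turned with it, with a Treg over naive log2 ratio of 0.18 at equal totals, while Runx1 stayed negative at -0.56.

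Treg cells were last set against Th1 cells. The Treg value was 1.47 times the Th1 value in Runx1 (0.189 to 66.2; log2 ratio 0.44) and 2.10 times in Runx3 (0.298 to 91.0; log2 ratio 0.88). In Runx2 it was 0.367 times in the lower region (0.0933 to 1.71; log2 ratio -1.28) and 0.699 times in the upper region (0.180 to 3.95; log2 ratio -0.46). The lower Runx2 region was thus called lower in Treg than in Th1 cells, against 21% of all regions, but not under median-of-ratios scaling, where its log2 ratio was -0.94. No Runx region was called higher, against 17% of all regions; at equal table totals Runx3 was, with a log2 ratio of 1.16. As deposited, 1701 of all regions were higher and 2096 lower in Treg than in Th1 cells, against 2261 and 1522 at equal totals. This comparison shares its Th1 library with the one of Th1 and naive cells, so the 2 calls for the lower Runx2 region rest on the same 4 Th1 reads.

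**Figure D2:**
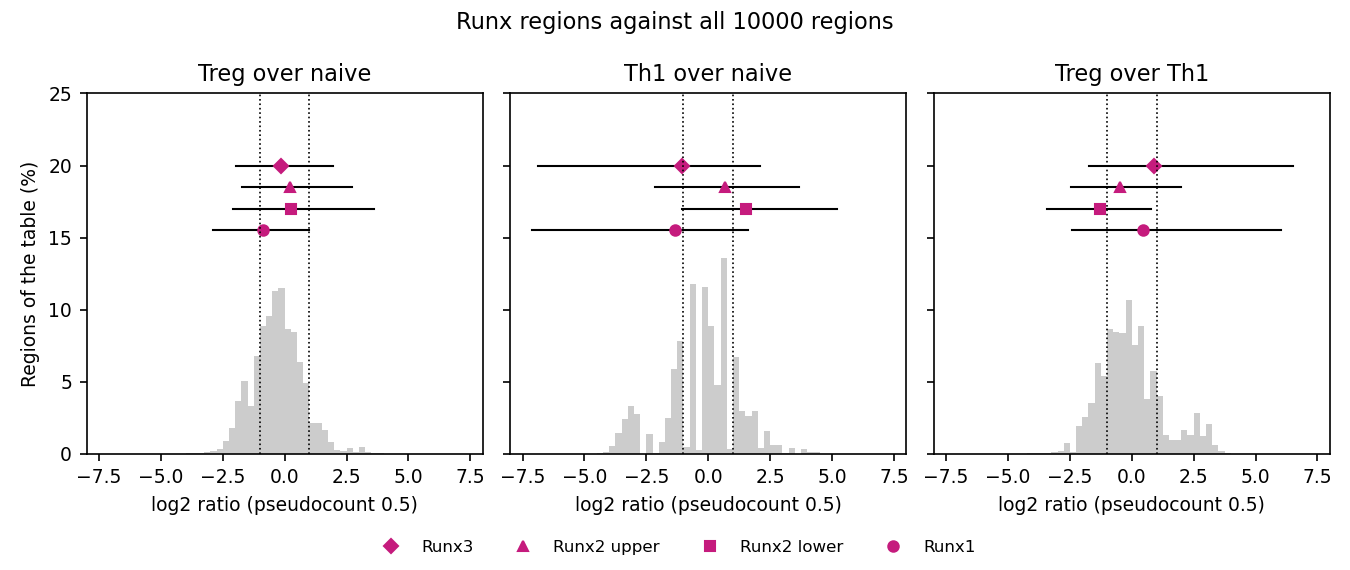
Log2 ratios of deposited values (0.5 added to both, horizontal axis) for Treg over naive, Th1 over naive and Treg over Th1. Grey bars give the share of all 10000 regions (vertical axis, %), symbols the 4 Runx regions at arbitrary heights, lines the exact 95% interval of the ratio with nothing added, and dotted lines the size rule of 1; every interval crosses 0.

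Taking the 4 Runx regions as a set, their summed reads divided among the libraries nearly as those of the whole table did. Treg cells gave 34 reads (59.6% of the set's 57), Th1 cells 9 (15.8%) and naive cells 14 (24.6%). In the whole table the shares were 58.1% for Treg, 15.2% for Th1 and 26.7% for naive cells. The median log2 ratio of the 4 regions was 0.03 for Treg over naive, against -0.29 over all regions, -0.19 for Th1 over naive, against -0.19, and -0.01 for Treg over Th1, against -0.22. With opposite signs inside the set, these medians describe no single Runx region.

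No region of another gene lay within 100 kb of a Runx region. Beside Runx1, the nearest regions of other genes were in an intron of Clic6, 262 kb below it, and in an intron of Setd4, 794 kb above it. The Runx2 regions had an exon of Clic5 379 kb below the lower one and an intron of Supt3h 323 kb above the upper one. Supt3h encodes a subunit of histone acetyltransferase complexes. Runx3 had an intron of Tmem50a 236 kb below it and an intron of Il28ra 552 kb above it. Median spacing between neighbouring regions in the table was 86.0 kb, less than each of these distances. Gaps within a gene enter that median, while the distances run to other genes only, so the measures are unlike. The 40.4 kb between the Runx2 regions was wider than 32.1% of all gaps between neighbouring regions.

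Each Runx gene has a chloride intracellular channel gene as its direct neighbour in the RefSeq gene order, Clic6 beside Runx1, Clic5 beside Runx2 and Clic4 beside Runx3. Each also has an Rcan gene, encoding a regulator of calcineurin, within 4 protein-coding genes. This family arrangement was looked at after the values were seen. Clic6 had 3 regions with 15 Treg, 4 Th1 and 11 naive reads in all, Rcan1 1 region with 12, 3 and 3 reads in the same order, and Rcan2 7 intronic regions with 42, 12 and 27. The Clic5 region, in exon 7, held 8 Treg, 0 Th1 and 6 naive reads, while Clic4 and Rcan3 had no region. The Clic and Rcan genes beside Runx2 thus had the most regions and those beside Runx3 none. The count beside Runx2 rests on the 7 regions of Rcan2, since Clic5 had 1 region against 3 in Clic6. Gene length was not taken into account. To have no region is the usual case, as 22.1% of protein-coding genes had one.

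**Figure D3:**
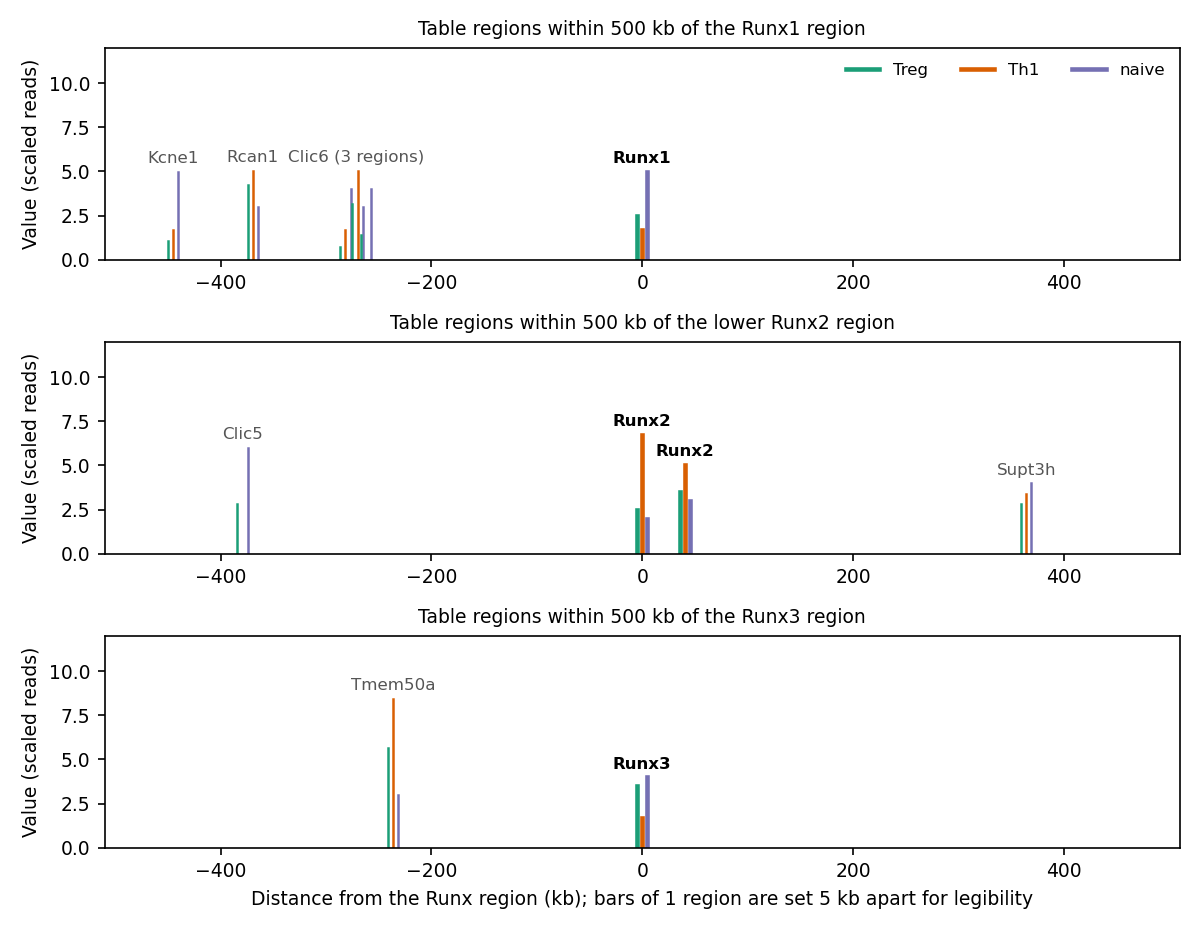
Deposited values (scaled reads, vertical axis) of every table region within 500 kb of the Runx1, lower Runx2 and Runx3 regions, by distance in kb (horizontal axis). Bars are Treg, Th1 and naive libraries from left to right, set 5 kb apart for legibility, with Runx regions in bold; the nearest regions of other genes lie 236 kb or more away.

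Cofactors and partners of Runx proteins were listed at about the share of all genes. Of 32, 7 had a region (21.9%), against 22.1% of 21896 protein-coding genes, and gene length was not taken into account. They were Cdk6, Ep300, Smad3, Tle1, Tle4, Wwtr1 and Yap1; Cbfb, the obligate partner, had none. Of their 10 regions, 1 was called higher and 3 lower in Th1 than in naive cells, against 19.4% and 29% of all regions. In Treg against naive cells 0 were higher and 4 lower, against 8.33% and 22.2%, and in Treg against Th1 cells 2 were higher and 2 lower, against 17% and 21%. Their median log2 ratio was -0.36 for Th1 over naive, against -0.19 over all regions, and -0.58 for Treg over naive, against -0.29; for Treg over Th1 both medians were -0.22. The histone acetyltransferase gene Ep300 had the highest mean value, with 5 Treg, 5 Th1 and 2 naive reads over exon 2 (chr15:81431720-81431994). That rank rests on its Th1 value of 8.40, as its Treg and naive values were 1.76 and 1.99. Cdk6, a cell cycle kinase that binds Runx1, had 2 intronic regions, with 8 Treg, 2 Th1 and 5 naive reads in one and 6, 3 and 6 in the other. The corepressor gene Tle1 held 8 Treg, 2 Th1 and 4 naive reads, and Yap1, a transcriptional coactivator of the Hippo pathway, 5, 2 and 5.

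Among 36 genes with reported Runx control in T cells, or encoding factors that act with Runx proteins, 8 had a region (22.2%). The share of all protein-coding genes was 22.1%, and gene length was not taken into account. Among them were Gzmb, Il17a, Itgae, Itgal, Prdm1, Sfpi1 and Tgfbr2, while Cd4, Cd8a, Zbtb7b, Ifng, Il4 and Foxp3 had none. Of their 11 regions, 1 was called higher and 3 lower in Th1 than in naive cells, and the table shares were again 19.4% and 29%. In Treg against naive cells 1 was higher and 3 lower (8.33% and 22.2% of all regions), and in Treg against Th1 cells 1 was higher and 1 lower (17% and 21%). Their median log2 ratios were -0.51 for Th1 over naive, -0.58 for Treg over naive and -0.07 for Treg over Th1, against -0.19, -0.29 and -0.22 over all regions. An intron of Sfpi1, which encodes the myeloid and B cell factor PU.1, had the highest mean value, with 5 Treg, 5 Th1 and 2 naive reads. That rank rests on its Th1 value of 8.40, as its Treg and naive values were 1.76 and 1.99. Itgae, an integrin gene that Runx3 induces in CD8 T cells, followed with 9 Treg, 2 Th1 and 5 naive reads over exon 14 (chr11:72931905-72932336). The Il17a promoter region, which overlaps exon 1, held 11 Treg, 3 Th1 and 4 naive reads, and its exon 2 region 5, 2 and 5. The granzyme gene Gzmb held 8 Treg, 2 Th1 and 5 naive reads over exon 4.

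A list of 19 genes lying near the Runx genes was drawn up by hand and not by a distance rule, and it leaves out Rcan2 and Il28ra, which have regions. Nothing particular to these neighbourhoods can therefore be read from its share. Of the 19, 8 had a region (42.1%, against 22.1% of protein-coding genes), 11 regions in all: Clic5, Clic6, Dopey2, Kcne1, Rcan1, Setd4, Supt3h and Tmem50a. The highest mean values were in Tmem50a, with 16 Treg, 5 Th1 and 3 naive reads, and in Rcan1, with 12, 3 and 3. Supt3h held 8 Treg, 2 Th1 and 4 naive reads. Of these 11 regions, 1 was called higher and 5 lower in Th1 than in naive cells (19.4% and 29% of all regions). In Treg against naive cells 0 were higher and 4 lower (8.33% and 22.2%), while in Treg against Th1 cells 4 were higher and 1 lower (17% and 21%). Their median log2 ratios were -0.22 for Th1 over naive, -0.43 for Treg over naive and -0.23 for Treg over Th1, against -0.19, -0.29 and -0.22 over all regions.

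At so few reads many genes have the same pattern as a Runx gene. The reads of Runx1, 7 Treg, 1 Th1 and 5 naive, were those of 70 regions in all, and those of Runx3, 10, 1 and 4, also of 70. Among 3400 other genes with 1 region, 23 matched Runx1 exactly, the first in alphabetical order being 1600021P15Rik, 3830406C13Rik and AL928544.2. Another 29 matched Runx3 exactly, first 1190005I06Rik, 2810006K23Rik and 4921513D23Rik. The region of Il18r1, the interleukin 18 receptor gene of Th1 cells, also held 10 Treg, 1 Th1 and 4 naive reads. Stat4, the other Th1 marker gene with a region, went the other way, with 15 Treg, 5 Th1 and 6 naive reads and a Th1 over naive log2 ratio of 0.46. Nothing about Th1 cells can be read from the match of Il18r1. Among 1012 other genes with 2 regions none matched Runx2 exactly. The closest by distance between mean log2 values over the Treg, Th1 and naive libraries were Lass3 (0.139), Traf3 (0.142) and L3mbtl2 (0.149).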

How the data were processed

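Per the submitters' processing notes, Bowtie 0.12.7, FastQC and mouse build mm9 were used; the calling, choice and scaling of regions are not stated there. Per the labels' protocols, 250 ng of captured DNA was made into libraries and fragments of 250 to 350 bp were kept. The deposited table gives a signal per region and library, a scaled number of reads. Every deposited Treg, Th1 and naive value was a whole multiple of 1 constant per library (100% of values, relative tolerance 1e-06), so reads were recovered by division.

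Poisson intervals and Clopper-Pearson intervals of ratios (both 95%, scipy 1.17.1) leave out all but counting error. No test between populations was possible with single libraries; the size rule was a log2 ratio of at least 1 with a pseudocount of 0.5. The members and gene lists were chosen with earlier results of these data known. Named were all Runx regions, listed genes with a region (values for the 4 with the highest mean) and the 3 most alike genes. An item that this rule names is not reported here. Of 5349 gene labels, 5161 matched a GRCm38.p6 name table. Calculations were tested on simulated reads.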

Additional observations from a re-analysis of the deposited data

How the results depend on the processing

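All 48 alternative values of the 12 Runx log2 ratios lay inside their counting intervals, and no called ratio changed sign. For every setting this was fixed in advance, so it lends the ratios no support. Deposited values used without recovering reads give the same ratios. A pseudocount of 5 only draws a ratio towards 0, which every interval holds, and cannot change its sign. Equal table totals and median-of-ratios scaling multiply each library by 1 factor. They took the worth of 1 read from 0.352 to 0.417 and 0.422 in Treg cells. In Th1 cells it went from 1.68 to 1.59 and 1.53, and in naive cells from 0.996 to 0.907 and 0.930. Such shifts were too small to move any Runx ratio out of its wide interval or to turn the sign of a called one. The Runx calls did not hold throughout. With a log2 threshold of 1.5, the 2 regions lower in Th1 than naive and the 1 lower in Treg than Th1 became 0 and 0. With a pseudocount of 5, no Runx region was called among Treg, Th1 and naive cells: 0 in place of 1 higher and 2 lower in Th1 than naive, and 0 in place of 1 lower in Treg than Th1. At equal table totals 1 region was lower in Th1 than naive, and 1 was higher in Treg than Th1. Under median-of-ratios scaling 1 was higher and 0 lower in Treg than Th1. An exact binomial test of the reads, added after the data were examined and comparing libraries rather than cell types, called 0 Runx regions in each comparison after Benjamini-Hochberg adjustment, in place of 3 for Th1 over naive and 1 for Treg over Th1; over the table it called 1 region for Treg over naive and 0 for the other comparisons, with 840, 153 and 501 below 0.05 unadjusted for Treg over naive, Th1 over naive and Treg over Th1.

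Counts over all 10000 regions moved more. Treg over naive gave 833 higher, but 405 at the threshold of 1.5, 6 with the pseudocount of 5, 1518 at equal totals and 1339 by median of ratios; it gave 2217 lower, but 1211, 73, 1233 and 1310 under the same settings and 1379 with at least 10 reads. Th1 over naive gave 1935 higher, but 965 at 1.5 and 191 with the pseudocount of 5, and 2899 lower, but 1532 and 221. Treg over Th1 gave 1701 higher, but 18 with the pseudocount of 5, and 2096 lower, but 926 at 1.5, 171 with the pseudocount of 5 and 1222 by median of ratios. Counts of regions and of listed genes with a region did not change by over 1.5 times on merging within 500 bp or joining by label only. No paired analysis was possible because each population had 1 library. With 1 to 10 reads per Runx region and library, the intervals leave even severalfold differences undetected.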
